A study of Homo sapiens with 6 samples.

Results

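The ZNF genes of human chromosome 19 were followed in PC3 prostate cancer cells with and without overexpression of GCNT1, the glycosyltransferase that builds core 2 branched O-glycans. The members were the protein-coding genes on chromosome 19 whose symbol is ZNF followed by digits, matched by Entrez id. RefSeq holds 246 such genes on GRCh38.p14, and 189 of them, among 12703 genes in the count table, were analysed here. Of these, 57 lie on the short arm (19p) and 132 on the long arm (19q), and 57 further members were not analysed here. The cells, PC3, are an established line grown from a bone metastasis of prostate cancer. Lentivirus had been used to make every line: the control group holds 3 lines that received a negative-control vector, and the overexpression group holds 3 stable lines that received the GCNT1 vector. Both groups therefore carry an integrated vector, and whether each line is a pool or 1 clone is not given in the sources used here. The labels call the 3 libraries of each group biological replicates.

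Most of these genes encode KRAB zinc finger proteins, the largest family of transcription factors in primates. Such a protein reads DNA through a tandem array of C2H2 fingers, and its KRAB box recruits the corepressor TRIM28, which brings in the histone methyltransferase SETDB1 and heterochromatin proteins. Many of them silence retrotransposons, and the genes themselves stand side by side in clusters that arose by repeated duplication.

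Total counts were 12125672 to 12755888 in the control libraries and 11392213 to 13825704 in the overexpressing libraries. GCNT1, the gene carried by the vector, had 9, 13 and 8 counts in the control libraries and 13, 16 and 35 in the overexpressing ones, a log2 fold change of 0.98 ± 0.37 (SE, n = 3 per group, edgeR quasi-likelihood test, Benjamini-Hochberg adjusted p = 0.0362). Its rise rests on overexpressing replicate 3, without which the log2 fold change was 0.49 (edgeR, adjusted p = 0.269), and the adjusted p was 0.092 without control replicate 1, 0.0944 without control replicate 3 and 0.0821 with DESeq2. Relative to library size, each overexpressing library still lay above each control library for GCNT1, narrowly so apart from replicate 3. The paper lists immunocytochemistry, sandwich ELISA and real-time PCR as checks of its PC3 cells with GCNT1 overexpression. Those measurements were not analysed here. Of 17 markers listed, 9 were analysed here. The epithelial keratins KRT8 and KRT18 had 2582 to 2725 and 2684 to 3140 counts per library. TMPRSS2, a prostate luminal gene that PC3 is known to lack, had 61, 49 and 45 counts in the control and 19, 27 and 23 in the overexpressing libraries (log2 fold change -1.26, edgeR, adjusted p = 9.25e-05). PECAM1, an endothelial marker, had 18 to 24 counts in the control and 54 to 60 in the overexpressing libraries. In bulk RNA, fewer cells that express a gene and less RNA per cell cannot be told apart.

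Neighbouring members whose starts lie at most 1 Mb apart were joined, which gave 4 clusters of 5 or more reference genes on 19p and 5 on 19q. They are named here by arm and order on GRCh38.p14. On 19p, p-A spans 2.8 to 2.9 Mb (4 of 5 reference genes analysed), p-B 7.1 to 9.7 Mb (13 of 15), p-C 11.5 to 12.6 Mb (24 of 25) and p-D 19.7 to 24.0 Mb (15 of 37). On 19q, q-A spans 34.7 to 35.0 Mb (4 of 5), q-B 36.2 to 37.7 Mb (17 of 26), q-C 43.5 to 45.1 Mb (19 of 24), q-D 51.6 to 53.5 Mb (35 of 39) and q-E 55.5 to 58.5 Mb (49 of 59). The pericentromeric cluster p-D accounts for 22 of the 57 members not analysed here. The remaining 9 analysed members lie outside clusters, 1 of them on 19p.

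Changes were found in members of both arms. A gene was called where the adjusted p was under 0.05 and the absolute log2 fold change was over 0.58. By this rule 34 of 189 members (18.0%) were called, against 19.3% of all 12703 genes, with 21 higher (11.1% of members, 8.28% of all genes) and 13 lower (6.88% of members, 11.1% of all genes). The share of members called was thus near the background. Among the calls, ZNF610, ZNF69, ZNF585A and ZNF114 were in the count table only through the group where they were higher. On 19p, 3 of 57 were higher and 2 lower. These rises numbered 7 without control replicate 1 (9 calls in all), 5 without control replicate 2 or overexpressing replicate 1, and 2 without overexpressing replicate 2 or 3. On 19q, 18 of 132 were higher and 11 lower. The share of members called was 8.77% on 19p and 21.97% on 19q. Among the other genes of chromosome 19 the share called was 10.19% on 19p (363 genes) and 17.35% on 19q (340 genes). Differences between the arms and between the clusters were not tested.

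**Figure D1:**
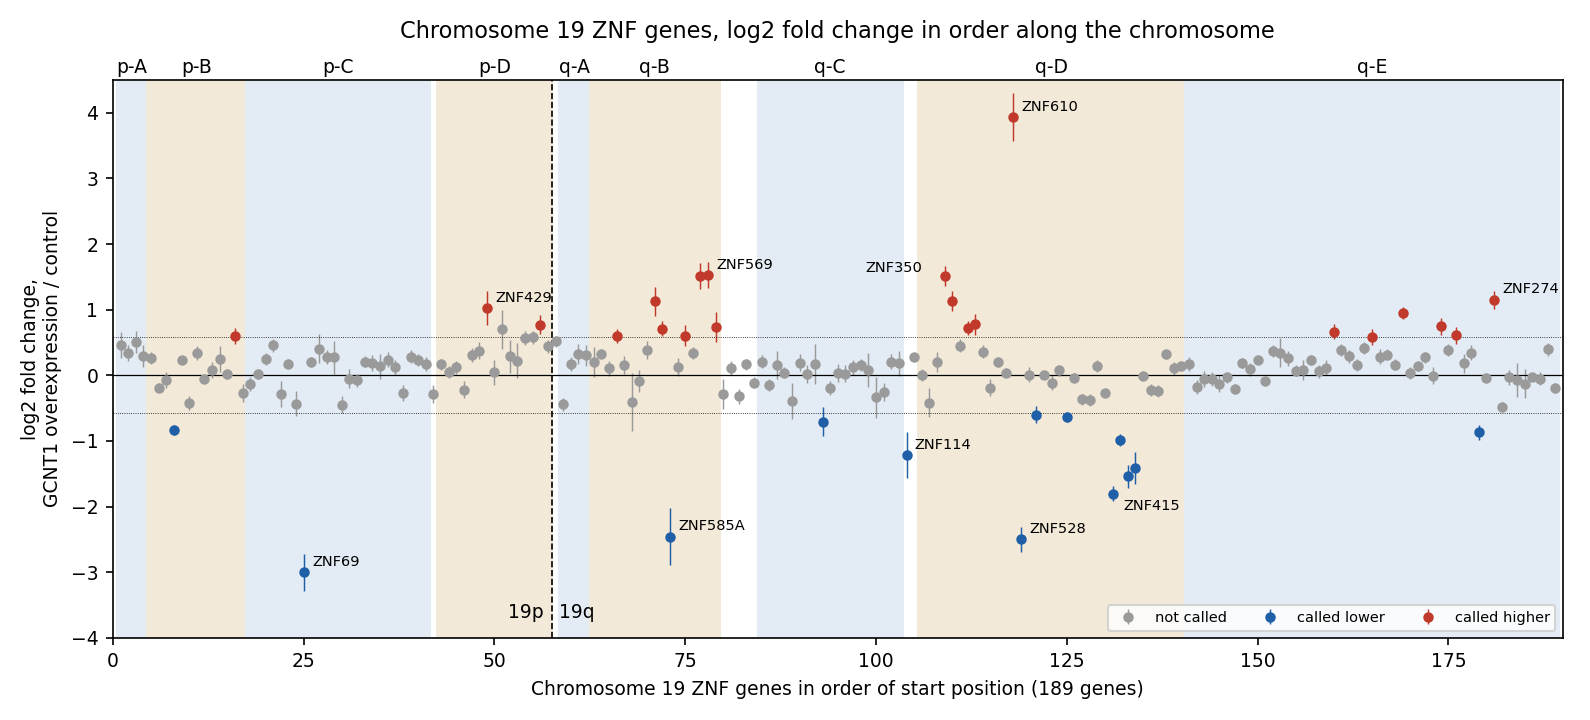
The x axis gives the 189 ZNF genes in order of start position and the y axis the edgeR log2 fold change of GCNT1 overexpression over control, with bars of 1 SE. Shaded bands mark the clusters, the dashed line the centromere and the dotted lines the fold threshold of 0.58. On 19p, ZNF69 at -3.00 lies farthest from 0 and 5 of 57 points are called, while cluster q-B holds 7 called rises and 1 called fall among its 17 points, and cluster q-D holds called rises followed by called falls.

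Small upward shifts were common among the members. The median log2 fold change was 0.14 over the 189 members, 0.21 on 19p and 0.11 on 19q, against 0.00 over all genes and 0.04 over 216 ZNF genes of other chromosomes. Values were above 0 for 125 of 189 members (66.1%), against 50.1% of all genes and 59.3% of the ZNF genes of other chromosomes. The other genes of chromosome 19 had medians of 0.06 on 19p (363 genes) and -0.05 on 19q (340 genes). By the adjusted p alone, 57 members were higher (30.2%) and 24 lower (12.7%), against 28.3% and 29.3% of all genes. The ZNF genes of other chromosomes leaned the same way, with 68 of 216 higher (31.5%) and 40 lower (18.5%). In CPM (reads per 1e6 counted reads, scaled with TMM factors) the groups did not overlap in 97 members (51.3%), against 62.5% of all genes. The overexpressing libraries lay above in 69 of the 189 members and below in 28, against 3925 and 4010 of all 12703 genes. Among the 216 ZNF genes of other chromosomes they lay above in 70 and below in 40. Summed over the members, the level was 3344, 3339 and 3148 CPM in the control libraries and 3297, 3570 and 3479 CPM in the overexpressing ones, so the groups overlapped in the sum.

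Library differences of similar size ran through the members. Within its group, control replicate 3 was the lowest library for 114 of 189 members (60.3%, 37.6% of all genes), and overexpressing replicate 1 was the lowest for 105 (55.6%, 39.1% of all genes). The ZNF genes of other chromosomes showed a like pattern, with control replicate 3 lowest for 46.8% and overexpressing replicate 1 lowest for 52.8%. The median deviation from the group mean was -0.06 in log2 units for control replicate 3 and -0.07 for overexpressing replicate 1, while the other genes of chromosome 19 deviated by 0.06 and 0.08 in these libraries. Without control replicate 3 the median log2 fold change was 0.08 over all members and 0.05 on 19q. The part of these library differences in the shifts was not tested.

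**Figure D2:**
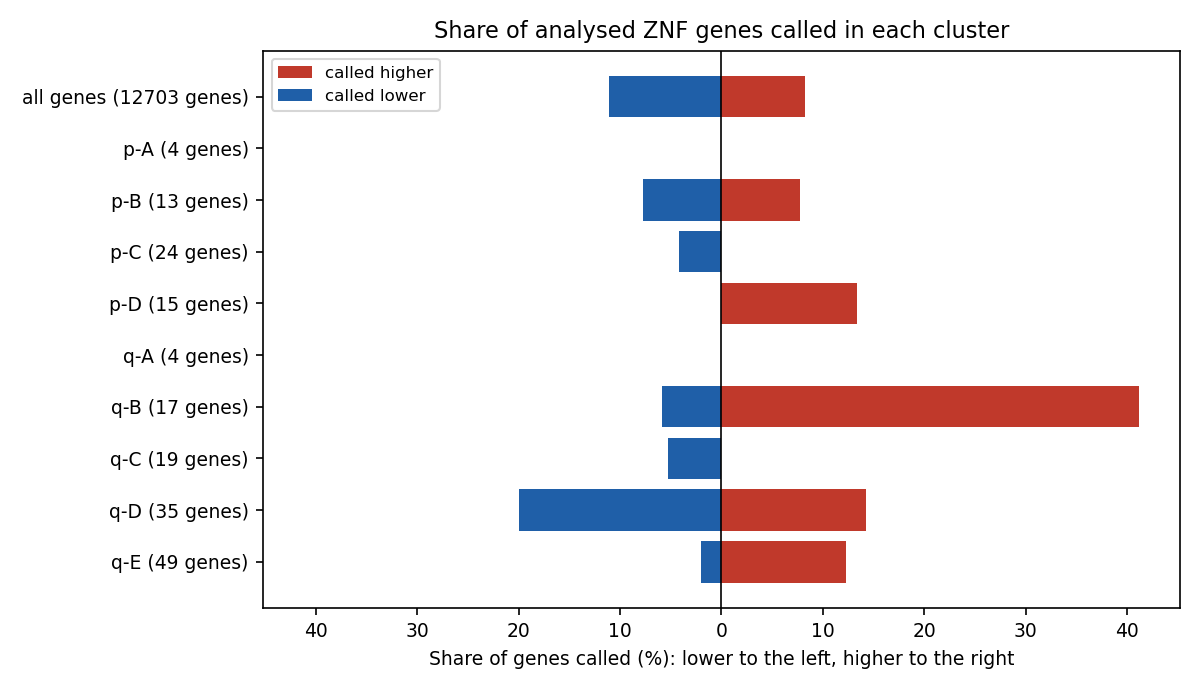
Bars give the percentage of genes called higher (red, to the right) or lower (blue, to the left) with GCNT1 overexpression, over all 12703 genes in the top row and over the analysed members of each cluster below it. Cluster q-B has 7 of 17 members called higher, and q-D has 5 of 35 called higher and 7 called lower.

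Cluster q-D held the largest rise and the largest fall of 19q, in adjacent analysed members. Of its 35 analysed members, 12 were called (34.3%, 19.3% of all genes), 5 higher and 7 lower, and its median log2 fold change was 0.01. From its start up to ZNF610, 5 of 13 members were higher (8.28% of all genes), with a median of 0.36. These 5 include ZNF610, which was in the count table through its overexpressing libraries alone. From ZNF528 onwards, 7 of 22 were lower (11.1% of all genes), with a median of -0.23. This boundary was chosen after the values were seen, so the split is a description.

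ZNF610, a KRAB protein with 8 fingers (chr19:52330221-52367778, + strand), had 2, 2 and 1 counts in the control libraries and 25, 33 and 29 with GCNT1 overexpression. It was at or under the floor of 3 counts in every control library and above it in every overexpressing one. The rise was at least 9.03-fold against that floor, taken per library, and edgeR gave an adjusted p of 1.15e-06. ZNF610 was in the count table through its overexpressing libraries alone, since each gene there had 1.01 CPM or more in its 3 highest libraries. A difference between the groups was therefore a condition of its being measured.

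ZNF528, the next analysed member along the chromosome (chr19:52397849-52418401, + strand, KRAB box, 15 fingers), went the other way. It had 85, 79 and 81 counts in the control libraries and 13, 13 and 20 with overexpression. The groups lay far apart, at 6.65 ± 0.27 and 1.16 ± 0.24 CPM (SD, n = 3), a log2 fold change of -2.50 ± 0.18 (SE, edgeR, adjusted p = 1.37e-07).

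Further along, ZNF415, ZNF347, ZNF665 and ZNF677 are 4 consecutive analysed members on the minus strand between 53107879 and 53254873, and all were lower. ZNF415, with 11 fingers, had 179, 199 and 180 counts in the control libraries and 45, 63 and 63 with overexpression. Its level fell from 15.1 ± 0.88 to 4.31 ± 0.37 CPM (SD, n = 3), a log2 fold change of -1.80 ± 0.12 (SE, edgeR, adjusted p = 2.97e-08), the smallest p in the cluster. ZNF347 had 433, 435 and 358 counts against 182, 261 and 219, with a log2 fold change of -0.99. Its groups did not overlap.

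ZNF665 had 82, 102 and 75 counts in the control libraries and 22, 39 and 34 with overexpression, a log2 fold change of -1.54 ± 0.18 (SE, edgeR, adjusted p = 9.07e-06). ZNF677 had 61, 69 and 42 counts against 12, 29 and 28, a log2 fold change of -1.41 ± 0.24 (SE, edgeR, adjusted p = 0.000278). In both genes every overexpressing library lay below every control library, and overexpressing replicate 1 was the lowest. ZNF28 and ZNF701, called lower in the same stretch, had smaller log2 fold changes of -0.63 and -0.60. ZNF28 shares exon sequence on the same strand with ZNF468, and ZNF701 with ZNF808, so their reads may be divided or left out in counting. Both lost their call without control replicate 1, without overexpressing replicate 1 and with scaling by library size alone, and ZNF701 also without overexpressing replicate 3.

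Pseudogenes were not members, but 3 with counts lie in the same stretch, and 2 of them were called lower. ZNF818P had 228, 234 and 214 counts in the control libraries and 55, 50 and 64 with overexpression, a log2 fold change of -2.09 (edgeR, adjusted p = 6.3e-09). ZNF702P had a log2 fold change of -0.72, and ZNF137P one of -0.20 with overlapping groups (edgeR, adjusted p = 0.502). Between ZNF350 and ZNF610 the one other gene analysed was PPP2R1A, a scaffold subunit of protein phosphatase 2A, which had a log2 fold change of 0.02 (edgeR, adjusted p = 0.837).

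At the start of cluster q-D the called members were higher. ZNF350 (ZBRK1, chr19:51964340-51986840, minus strand), a KRAB repressor that binds BRCA1, had 42, 38 and 26 counts in the control libraries and 95, 115 and 113 with overexpression. The groups were well separated, at 2.86 ± 0.59 and 8.20 ± 0.18 CPM (SD, n = 3), a log2 fold change of 1.51 ± 0.16 (SE, edgeR, adjusted p = 2.89e-06). Its neighbour ZNF615 had 65, 55 and 48 counts against 98, 163 and 133, a log2 fold change of 1.13 ± 0.16 (SE, edgeR, adjusted p = 4.16e-05). ZNF432 and ZNF841 rose by 0.72 and 0.77 on the log2 scale, and these 2 genes share exon sequence on the same strand and are not independent readings. ZNF841 lost its call without overexpressing replicate 2.

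Sums of CPM over the same stretches describe the split and are no support for it, since the boundary was set from these values. The members up to ZNF610 summed to 215 ± 10.99 CPM in the control and 265 ± 23.5 CPM in the overexpressing libraries (SD, n = 3), with ranges of 202 to 222 and 244 to 290 that did not overlap. The members from ZNF528 onwards summed to 666 ± 30.9 and 576 ± 37.6 CPM, with ranges of 630 to 685 and 536 to 611. Over the whole cluster the sums were 880 ± 41.7 and 841 ± 60.6 CPM, and their ranges overlapped.

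**Figure D3:**
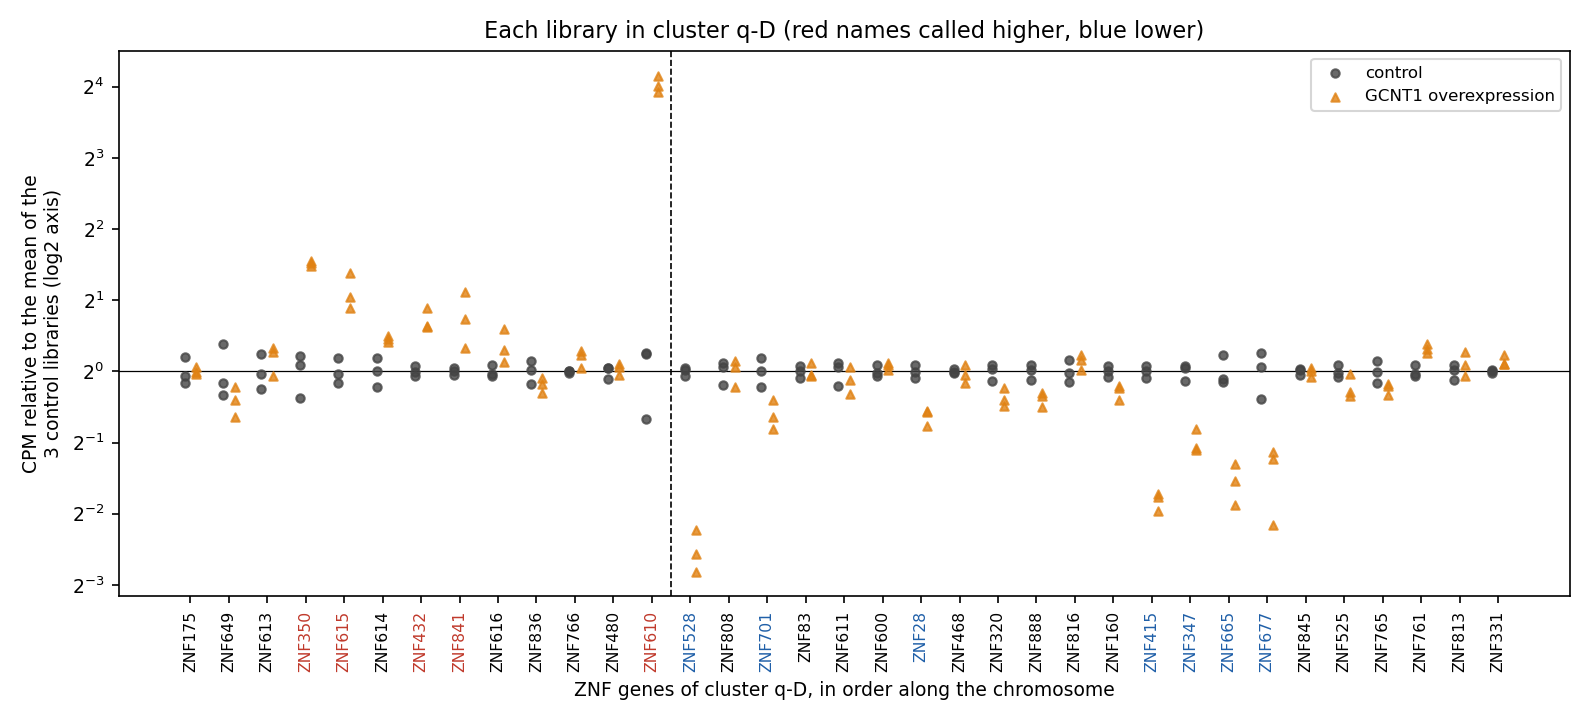
The x axis gives the 35 analysed genes of cluster q-D in order along the chromosome and the y axis, a log2 axis, the CPM of each library relative to the mean of the 3 control libraries (circles control, triangles overexpression, the dashed line after ZNF610). The rises lie at the start and end with ZNF610, the falls begin at ZNF528, and for the called genes the 3 overexpressing libraries lie together on 1 side of the controls.

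Promoter sequence is shown for 4 members whose levels changed, 2 lower and 2 higher, so that the promoters can be compared beside the values. They run from 250 bases before to 50 bases after the RefSeq start on GRCh38.p14, written 5′ to 3′ on the strand of the gene, and capitals mark CCGGAAG, an ETS-family motif (CTTCCGG where it is on the other strand), and CCAAT, the NF-Y motif. The windows are ZNF528 at chr19:52397599-52397898 (+ strand), ZNF69 at chr19:11887532-11887831 (+ strand), ZNF350 at chr19:51986791-51987090 (minus strand) and ZNF274 at chr19:58182811-58183110 (+ strand).
ZNF528: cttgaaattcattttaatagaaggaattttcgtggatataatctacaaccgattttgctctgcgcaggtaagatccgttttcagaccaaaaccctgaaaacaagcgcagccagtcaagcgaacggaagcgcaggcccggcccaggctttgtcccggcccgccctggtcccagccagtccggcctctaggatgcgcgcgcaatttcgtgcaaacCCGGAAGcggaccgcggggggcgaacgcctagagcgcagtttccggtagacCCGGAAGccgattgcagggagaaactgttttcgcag
ZNF69: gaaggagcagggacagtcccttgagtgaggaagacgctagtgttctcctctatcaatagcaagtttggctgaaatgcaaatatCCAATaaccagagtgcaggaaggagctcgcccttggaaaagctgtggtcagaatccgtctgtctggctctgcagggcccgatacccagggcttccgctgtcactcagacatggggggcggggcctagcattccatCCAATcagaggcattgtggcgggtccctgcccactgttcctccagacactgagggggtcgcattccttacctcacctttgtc
ZNF350: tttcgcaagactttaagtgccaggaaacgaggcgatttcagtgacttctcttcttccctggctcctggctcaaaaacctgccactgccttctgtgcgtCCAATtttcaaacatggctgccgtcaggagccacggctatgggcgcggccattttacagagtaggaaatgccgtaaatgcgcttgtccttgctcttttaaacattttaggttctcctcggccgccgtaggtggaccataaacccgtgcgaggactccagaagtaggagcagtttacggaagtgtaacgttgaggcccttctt
ZNF274: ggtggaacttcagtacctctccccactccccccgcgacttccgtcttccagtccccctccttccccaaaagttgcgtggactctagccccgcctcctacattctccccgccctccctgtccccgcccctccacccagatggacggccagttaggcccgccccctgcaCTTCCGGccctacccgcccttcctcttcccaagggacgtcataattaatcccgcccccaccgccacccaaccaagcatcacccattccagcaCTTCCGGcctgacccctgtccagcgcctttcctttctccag

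The 2 promoters of genes that fell were unlike each other, with 27 CpG and 2 CCGGAAG for ZNF528 and 8 CpG and 2 CCAAT for ZNF69. ZNF350 had 17 CpG and 1 CCAAT, and ZNF274 had 16 CpG and 2 CCGGAAG, both on the other strand. Searched on both strands, CCGGAAG was found in 76 of 169 member promoters (45.0%), against 14.2% of 15843 protein-coding promoters of the same length. CCAAT was in 92 (54.4%, against 36.4%) and TATAAA, the TATA box, in 4 (2.37%, against 9.63%). Among the promoters found for called members, CCGGAAG was in 8 of 19 called higher and 7 of 10 called lower, and in 61 of 140 not called. The median number of CpG was 20 in those called higher, 26.5 in those called lower and 21 in those not called. These counts describe letters in a window and no binding was measured. Promoters of the other 20 members were not analysed here.

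In cluster q-B nearly all called members rose. Of 17 analysed members 8 were called (47.1%, 19.3% of all genes), 7 higher and 1 lower, the median log2 fold change was 0.34, and 14 of 17 values were above 0. The summed level was 178 ± 9.04 CPM in the control and 233 ± 17.3 CPM in the overexpressing libraries (SD, n = 3), with ranges of 168 to 185 and 213 to 244.

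ZNF569 (chr19:37411157-37469265, minus strand, 18 fingers) had 22, 24 and 22 counts in the control libraries and 64, 59 and 87 with overexpression. Its groups did not overlap, at 1.85 ± 0.09 and 5.33 ± 0.95 CPM (SD, n = 3), a log2 fold change of 1.52 ± 0.20 (SE, edgeR, adjusted p = 2.16e-05). ZNF570 lies antisense to part of it, and whether the counting used strand is not given in the sources used here. ZNF527, just before it on the plus strand, had 23, 19 and 21 counts against 45, 70 and 78, a log2 fold change of 1.51 ± 0.20 (SE, edgeR, adjusted p = 2.77e-05).

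ZNF850, which has 29 fingers, had 14, 27 and 21 counts in the control libraries and 46, 48 and 51 with overexpression, a log2 fold change of 1.12 ± 0.22 (SE). ZNF420 (Apak), a KRAB protein known as an inhibitor of p53, had 77, 81 and 61 counts against 110, 134 and 140, a log2 fold change of 0.71 ± 0.12 (SE). In both, all overexpressing libraries were above all controls. The remaining rises were ZNF571 (0.73), ZNF383 (0.61) and ZNF260 (0.60) on the log2 scale. ZNF571 lost its call under DESeq2, and without overexpressing replicate 2. ZNF383 and ZNF260 lost theirs without control replicate 3 or overexpressing replicate 2, and ZNF383 also without overexpressing replicate 3.

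ZNF585A (chr19:37145540-37172695, minus strand, 21 fingers) was the only called fall of the cluster. It had 13, 20 and 20 counts in the control libraries and 5, 1 and 4 with overexpression, a log2 fold change of -2.46 ± 0.44 (SE, edgeR, adjusted p = 0.000344). Its groups were separate but rested on few reads, and it was in the count table through its control libraries alone. Of the 75-base stretches of its transcript, 10.5% also occur outside genes that overlap it, most often in its paralogue ZNF585B. ZNF585B itself had 77, 73 and 58 counts against 72, 84 and 87, with overlapping groups and a log2 fold change of 0.13 (edgeR, adjusted p = 0.426). ZNF382 in the same cluster had 14, 21 and 17 counts against 2, 15 and 25, so the overexpressing libraries lay on both sides of the controls.

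Cluster q-E, at the end of 19q, had 6 of 49 members called higher (12.2%, 8.28% of all genes) and 1 lower (2.04%, 11.1% of all genes). Its summed level was 954 ± 12.4 CPM in the control and 1031 ± 8.50 CPM in the overexpressing libraries (SD, n = 3), and the ranges of 940 to 962 and 1022 to 1039 did not overlap.

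ZNF274 (chr19:58183061-58213562, + strand, 5 fingers), which is known to bind the 3′ ends of zinc finger genes and to bring SETDB1 to them, had 103, 85 and 95 counts in the control libraries and 162, 276 and 237 with overexpression. The groups were separate, at 7.68 ± 0.74 and 17.0 ± 3.05 CPM (SD, n = 3), a log2 fold change of 1.15 ± 0.14 (SE, edgeR, adjusted p = 1.16e-05). ZNF551 had 169, 153 and 139 counts against 263, 346 and 343, and the smallest p of the cluster, with a log2 fold change of 0.95 ± 0.09 (SE, edgeR, adjusted p = 1.07e-06). Its groups lay at 12.5 ± 0.85 and 24.1 ± 1.25 CPM.

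The other called rises of this cluster were smaller, with log2 fold changes of 0.75 in ZNF587B, 0.67 in ZNF772, 0.61 in ZNF814 and 0.58 in ZNF416. ZNF416 lost its call without control replicate 1, control replicate 3 or overexpressing replicate 1, ZNF814 without overexpressing replicate 1, and ZNF772 without overexpressing replicate 3. ZNF606, between ZNF256 and ZNF329, was the called fall, with 118, 133 and 113 counts in the control libraries and 64, 74 and 75 with overexpression. Its log2 fold change was -0.87 ± 0.12 (SE, edgeR, adjusted p = 3.26e-05), and its groups did not overlap.

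Elsewhere on 19q changes were sparse. In cluster q-C, 1 of 19 members was called (5.26%, 19.3% of all genes), and the log2 fold changes ran from -0.71 to 0.21. That gene, ZNF284, had 31, 30 and 23 counts in the control libraries and 13, 20 and 22 with overexpression, a log2 fold change of -0.71 ± 0.23 (SE, edgeR, adjusted p = 0.0169). DESeq2 gave it an adjusted p of 0.093, and edgeR gave 0.0586 without control replicate 1, 0.0542 without control replicate 2 and 0.0559 without overexpressing replicate 1. The 4 members of q-A had log2 fold changes from -0.44 to 0.33, and 1 of them was lower by the adjusted p alone, near the 29.3% of all genes. Outside the clusters, ZNF114, a KRAB protein with 3 fingers, had 15, 15 and 16 counts against 6, 4 and 11, a log2 fold change of -1.21 ± 0.35 (SE, edgeR, adjusted p = 0.00875). It too was in the table through its control libraries alone.

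On 19p one gene changed strongly among neighbours with small values. ZNF69 (chr19:11887782-11980222, + strand, KRAB box, 13 fingers) had 78, 66 and 46 counts in the control libraries and 5, 7 and 13 with overexpression. The groups lay at 5.13 ± 1.16 and 0.62 ± 0.26 CPM (SD, n = 3) without overlap, a log2 fold change of -3.00 ± 0.29 (SE, edgeR, adjusted p = 1.49e-06). This was the largest fall among the 189 members. ZNF69 was in the count table through its control libraries alone. The other 23 analysed members of p-C had log2 fold changes from -0.45 to 0.46, among them its neighbours ZNF439 at -0.43 and ZNF700 at 0.21.

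In cluster p-B, ZNF558, a KRAB repressor of the mitochondrial quality-control gene SPATA18, had 333, 342 and 301 counts in the control libraries and 175, 198 and 214 with overexpression. Its level fell from 26.5 ± 1.00 to 14.9 ± 0.42 CPM (SD, n = 3) with no overlap, a log2 fold change of -0.83 ± 0.08 (SE, edgeR, adjusted p = 1.25e-06). ZNF562 in the same cluster had 124, 142 and 98 counts against 151, 218 and 221, a log2 fold change of 0.60 ± 0.12 (SE, edgeR, adjusted p = 0.00105). It stands just past the fold threshold and passed it in 3 of 6 fits that left out 1 library, with 0.49 without control replicate 3, 0.56 without overexpressing replicate 2 and 0.56 without overexpressing replicate 3. The transcript ZNF561-AS1 lies antisense to it.

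In the pericentromeric cluster p-D most analysed members had small positive values. Of 15 members 14 had a log2 fold change above 0, with a median of 0.31, 7 were higher by the adjusted p alone (46.7%, 28.3% of all genes), and 2 were called, both higher (13.3%, 8.28% of all genes). The summed level was 134 ± 3.42 CPM in the control and 166 ± 13.4 CPM in the overexpressing libraries (SD, n = 3), with ranges of 131 to 137 and 152 to 179.

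ZNF429 had 14, 14 and 11 counts in the control libraries and 31, 31 and 23 with overexpression, a log2 fold change of 1.02 ± 0.26 (SE, edgeR, adjusted p = 0.00467). ZNF681 had 91, 76 and 63 counts against 103, 163 and 155, a log2 fold change of 0.77 ± 0.14 (SE, edgeR, adjusted p = 0.000471). Both had all overexpressing libraries above all controls in CPM, and the exons of ZNF429 overlap LINC00664 on the same strand. Other members lay close to the thresholds. ZNF91, with 31 fingers and known for silencing SVA retrotransposons, had 176, 147 and 160 counts against 192, 284 and 293 and missed the fold threshold at 0.57 ± 0.11 (SE, edgeR, adjusted p = 0.000557). ZNF675 did so at 0.58, while ZNF492, at 0.70, had an adjusted p of 0.0616 by edgeR.

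In cluster p-A the 4 members had log2 fold changes from 0.30 to 0.51, and 2 of them were higher by the adjusted p alone, as were 28.3% of all genes.

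**Figure D4:**
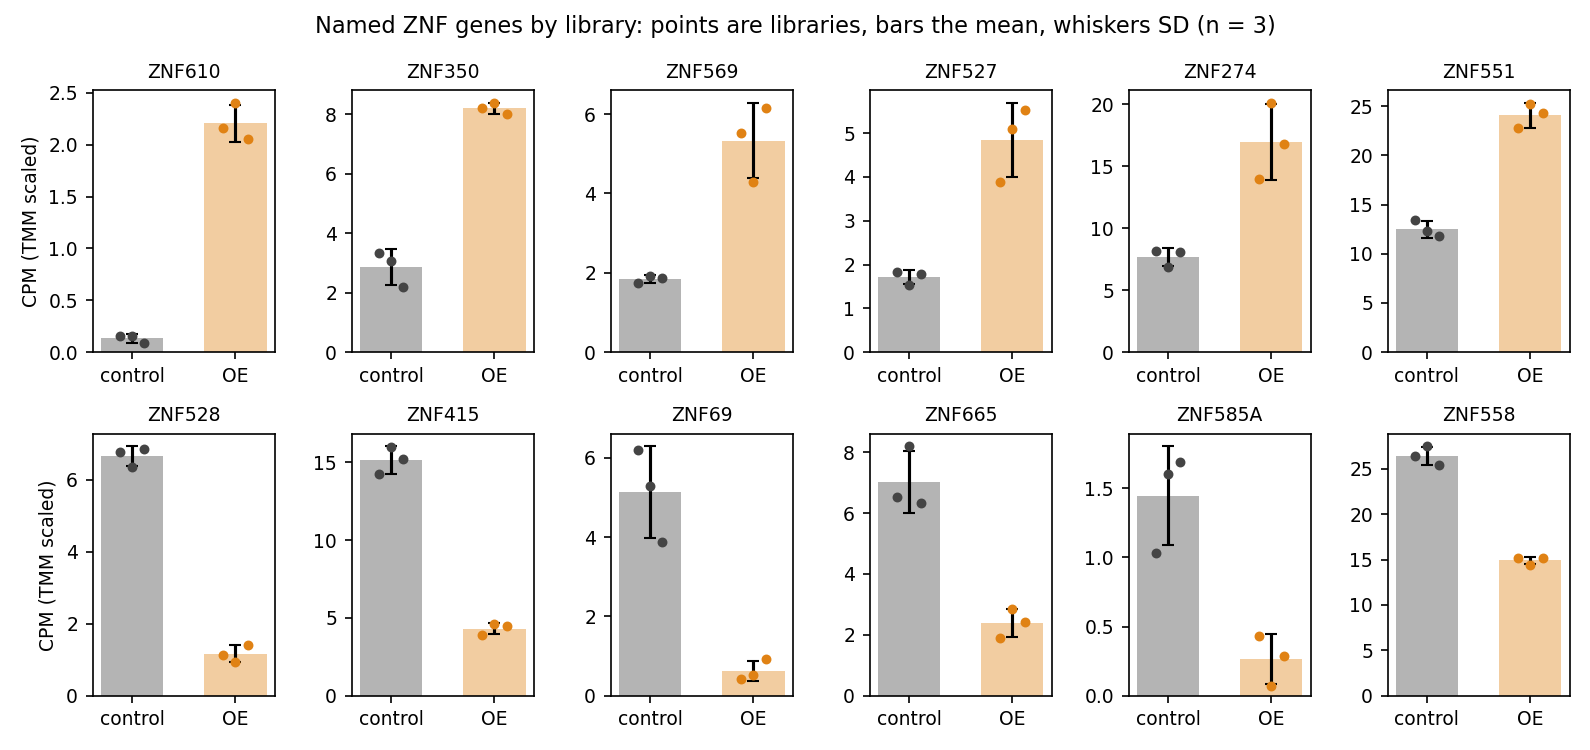
Each panel gives 1 named member, with CPM on a y axis that starts at 0 and has its own scale, 1 point per library, a bar at the mean of each group of 3 and whiskers of 1 SD (OE, GCNT1 overexpression). The panels show the separation of control and GCNT1 overexpression libraries in selected called rises and falls, with ZNF610 near 0 in the control and ZNF69 near 0 with overexpression.

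The members with the most reads moved little. On 19p, ZNF358 had 105 ± 9.55 CPM in the control and 92.0 ± 1.73 CPM in the overexpressing libraries (SD, n = 3), a log2 fold change of -0.19. ZNF317 had 93.0 ± 1.84 and 108.8 ± 3.74 CPM, a log2 fold change of 0.23, and ZNF266 had 64.6 ± 2.31 and 62.0 ± 3.60 CPM with overlapping groups. On 19q, ZNF160 had 110.0 ± 5.52 and 90.9 ± 6.44 CPM, a log2 fold change of -0.27. ZNF146, whose protein is made of little but its fingers, had 89.6 ± 3.65 and 112.6 ± 8.16 CPM, a log2 fold change of 0.33, and ZNF83 had 77.8 ± 4.66 and 78.0 ± 5.83 CPM. ZNF317, ZNF358, ZNF146 and ZNF160 passed the adjusted p (edgeR, 0.00223, 0.0261, 0.000535 and 0.0023) but not the fold threshold. ZNF358 lost the adjusted p with the replicate block (0.0547), with library size alone (0.0985), and without control replicate 2 (0.0702), control replicate 3 (0.12), overexpressing replicate 2 (0.0804) or overexpressing replicate 3 (0.0645). Called members had fewer reads, with a median of 7.83 CPM for those higher and 4.70 CPM for those lower, against 14.4 CPM for those not called and 32.8 CPM over all genes.

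A KRAB pattern was found in the translated canonical transcript (GENCODE 44) of 154 of the 189 members, of which 33 were called (21.4%, near the 19.3% of all genes), 20 higher and 13 lower, with a median log2 fold change of 0.16. In the 35 members without the pattern 1 was called (2.86%), which was ZNF260, and the median was -0.04. The pattern is short, so a diverged box can be missed. On 19p the medians were 0.22 with the pattern (47 members) and -0.07 without (10 members), and on 19q they were 0.12 (107 members) and 0.01 (25 members). The difference between the classes was not tested. The median number of fingers was 14 in members called higher, 13 in those called lower and 12 in those not called.

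**Figure D5:**
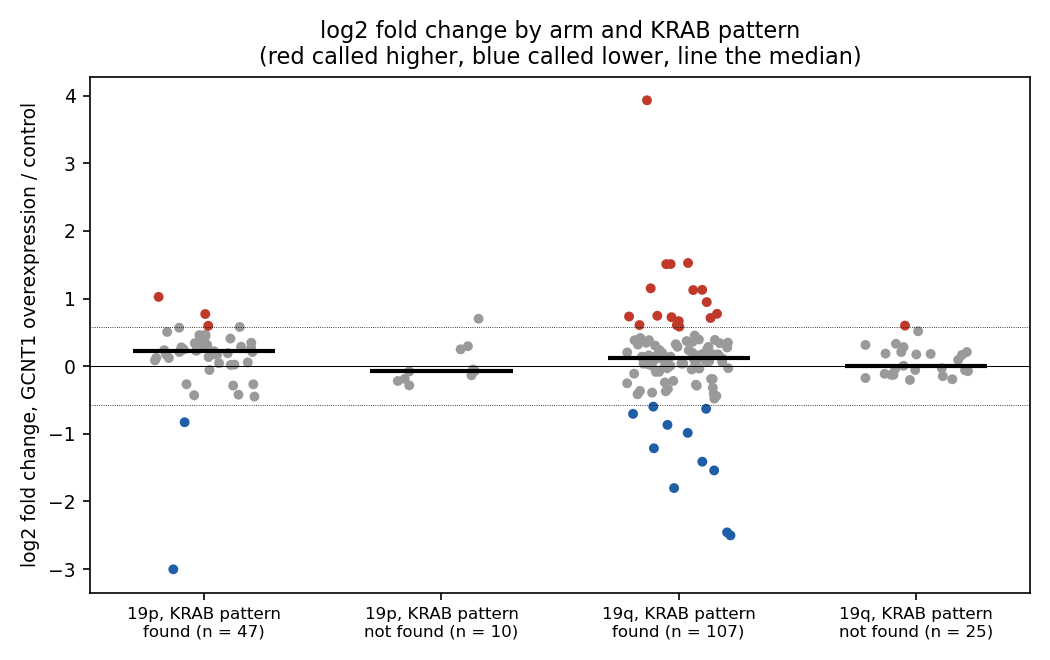
Points give the log2 fold change of each of the 189 members, split by arm and by whether a KRAB pattern was found in the protein, with a line at the median of each class. The called members lie in the classes with the pattern, apart from ZNF260 on 19q.

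Among 171 pairs of adjacent analysed members of 1 cluster, 115 had the same sign, in a set in which 66.1% of all members were above 0, and whether neighbours share a sign more often than other members was not tested. In 10 pairs both genes were called, and 8 of these moved the same way, the exceptions being ZNF420 beside ZNF585A and ZNF610 beside ZNF528. Exons of 60 members overlap another gene on the same strand and those of 60 overlap one on the opposite strand, and 95 members share no 75-base stretch with a gene elsewhere.

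Few corepressor genes that KRAB proteins work through were called. TRIM28 had 7132, 7754 and 7532 counts in the control libraries and 7809, 7879 and 8421 with overexpression, a log2 fold change of 0.01 ± 0.06 (SE, edgeR, adjusted p = 0.86). SETDB1 had a log2 fold change of 0.00 ± 0.06. Of 35 genes listed, 33 were analysed and 2 were called (6.06%, 19.3% of all genes). The list holds corepressor, heterochromatin and DNA methylation genes and also ZKSCAN3, itself a zinc finger transcription factor, at -0.27 (edgeR, adjusted p = 0.0298). The histone methyltransferase SUV39H2 was higher, with 107, 117 and 111 counts against 159, 222 and 196, a log2 fold change of 0.69 ± 0.10 (SE, edgeR, adjusted p = 9.96e-05). GATAD2B, a NuRD subunit, was lower, with 19, 13 and 32 counts against 7, 16 and 13. Its groups overlapped, and its log2 fold change of -0.92 ± 0.37 (SE, edgeR, adjusted p = 0.0464) became -0.48 (adjusted p = 0.262) without control replicate 3. The call of GATAD2B was also lost without control replicate 1, overexpressing replicate 1 or overexpressing replicate 3, and under limma-voom, DESeq2 and library size scaling (adjusted p = 0.0616, 0.078 and 0.0596). By the adjusted p alone 9 of the 33 were higher and 12, ZKSCAN3 among them, lower (27.3% and 36.4%), against 28.3% and 29.3% of all genes.

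The other zinc finger genes of chromosome 19, picked by the symbols ZFP, ZSCAN, ZIK, ZIM, ZBTB and ZKSCAN, had 8 analysed members whose log2 fold changes ran between -0.40 and 0.52 around a median of 0.17. ZFP30, ZSCAN22 and ZBTB7A were higher by the adjusted p alone (37.5%, 28.3% of all genes), at 0.52, 0.45 and 0.39, and all 8 lay within the fold threshold.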

How the data were processed

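RNA from 6 PC3 lines, 3 control and 3 GCNT1 overexpressing, was made into stranded mRNA libraries and sequenced as single reads of 75 bases. Trimming by Cutadapt, alignment by HISAT2 against hg38 and gene-level counting by featureCounts were done by the authors. The deposited values are raw read counts per Entrez gene, 1 column per library, not normalized. The annotation, the strand setting and the filter on low counts are not given in the sources used here. No gene in the table fell under 1.01 CPM in its third-highest library, reckoned on library totals.

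Counts were tested with edgeR 4.0.16 in R 4.3.3 (filterByExpr, which kept all 12703 genes, TMM factors, quasi-likelihood test between both groups), and p-values were adjusted by Benjamini-Hochberg over all genes. The fit was tested on simulated data. Calls required an adjusted p under 0.05 and an absolute log2 fold change over 0.58. CPM were computed with TMM factors, and 3 counts, the floor used here, correspond to 0.213 to 0.259 CPM. That floor reflects counting error alone. Libraries of a group differed by more than sampling noise (chi-square per degree of freedom 1.65 to 5.61), and each counted as 1 sample.

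Entrez ids were matched to RefSeq for GRCh38.p14 (12661 of 12703), and 17 chromosome 19 ZNF pseudogenes, 4 of them in the table, were left out. The arms were split at 26 Mb. KRAB and C2H2 patterns and shared 75-base stretches were found in GENCODE 44 transcripts, and promoters came from RefSeq (169 of 189 members, all identical to hg38). Genes named were the 6 largest rises and falls per arm among called members whose groups did not overlap, members at or under the floor throughout 1 group, the 3 with the highest CPM per arm, the called member with the smallest p per cluster, called corepressors and GCNT1. Neighbours and other called members were named after their values were seen. Part of the marker list is not reported here. The members and lists were chosen with earlier results of these data known. Alternatives were limma-voom (limma 3.58.1), DESeq2 1.42.0, scaling by RLE factors or by library size alone, no filter, 10 counts in every library, a replicate block, leaving out each library, values relative to the median of other genes of the arm, and the adjusted p alone.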

Additional observations from a re-analysis of the deposited data

How the results depend on the processing

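Of the 34 calls, most were shared by the other tools. limma-voom called 35 members, 34 of them shared, DESeq2 called 32, all shared, and RLE factors and no filter gave the same 34. With the adjusted p alone, 81 members passed (57 higher, 24 lower), 24 on 19p (19 higher, 5 lower) and 57 on 19q (38 higher, 19 lower), since the fold threshold was dropped. Scaling by library size alone gave 35 calls, 32 shared, with 8 on 19p, 6 of them higher. Requiring 10 counts in every library removed ZNF69, ZNF114, ZNF585A and ZNF610, which left 1 fall on 19p. Relative to the other genes of each arm 32 calls were left, without ZNF562 and ZNF701. Among the named genes, no called gene changed direction under any alternative, while the uncalled ZNF266 went from -0.06 to 0.00 with library size alone, and ZNF83 from 0.01 to -0.04 without control replicate 2 and -0.05 without overexpressing replicate 2.

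Leaving out 1 library gave 29 to 35 calls, 4 to 9 on 19p (2 to 7 higher) and 24 to 28 on 19q, and a 19q median log2 fold change of 0.052 to 0.147. The rises on 19p numbered 7 without control replicate 1 (9 calls in all) and 5 without control replicate 2 or overexpressing replicate 1. The gains included ZNF675 and, except without control replicate 2, ZNF91, which lie close to the fold threshold. The median of 0.052 came without control replicate 3, and the cause was not tested. A replicate block on the label numbers gave the same 34 calls. Same-numbered libraries did not deviate together (correlations -0.465, 0.0865 and -0.188, mean -0.189, against 0.0971 for different numbers), so the numbers were not taken as pairs.

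Depth limits genes such as ZNF610, ZNF585A and ZNF114, for which a few reads set the value. With 3 libraries per group, the p-values weigh each group difference against the spread between these lines, estimated with the help of all genes.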
